A study of Mus musculus with 4 samples.

Results

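The SNARE and synaptotagmin genes of regulated exocytosis were followed across the cell types of mouse pancreatic islets. The genes were chosen by symbol alone: the synaptotagmins (Syt), the synaptotagmin-like proteins (Sytl), the syntaxins (Stx), the syntaxin-binding proteins (Stxbp), the VAMPs (Vamp), the SNAP-25 family (Snap23, Snap25, Snap29 and Snap47), the RIMs (Rims), the complexins (Cplx) and the Doc2 proteins (Doc2). This gave 66 of the 38457 mouse genes in the count tables: 17 synaptotagmins, 15 syntaxins (7 of the plasma membrane and 8 of inner membranes), 7 syntaxin-binding proteins, 7 VAMPs, 5 synaptotagmin-like proteins, 4 SNAP-25 family members, 4 RIMs, 4 complexins and 3 Doc2 genes. Of the 66 genes 56 had at least 100 counts over all cells, 10 had fewer, and 0 had no count at all.

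The series holds 4 libraries of dissociated pancreatic islet cells, made with inDrop, in which single cells are barcoded in droplets and the 3′ ends of their messenger RNAs are sequenced. The genotype label is WT in 2 libraries and Sin3A mutant in 2, described as 2 biological replicates per genotype. Every title carries a number, and the libraries of the first number are called A here, 1 WT and 1 mutant, and those of the second B. Runs of 4 values give first both A libraries and then both B libraries, WT before mutant. The sources used here do not say what the numbers mean, which Sin3A allele was used, whether a driver limited it to a cell type, or the strain, age and number of animals. The p-values therefore measure only the spread between these libraries. Kept were 1207, 1144, 1793 and 2382 cells with median counts per cell of 9997, 7605, 5306 and 4448.5. Pairs of libraries shared between 12 and 42 barcode names. Sin3a, the targeted gene, a corepressor scaffold, had a level of 25.1, 50.5, 41 and 18.1 CPM in insulin-gated cells, where CPM are counts per 1000000 counts summed over the cells of a gate. The library labelled mutant was thus the higher within A and the lower within B. Whether the allele changes the count of Sin3a 3′ ends is not known from these sources. All names of libraries below are only those of the labels.

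Hormone granules fuse with the plasma membrane when a SNARE on the granule, a VAMP, pairs with a syntaxin and a SNAP-25 family protein on the plasma membrane. Munc18 proteins, of the Stxbp family, hold the syntaxin, complexins clamp and then help the assembled complex, and synaptotagmins and Doc2 proteins make fusion depend on calcium. Granuphilin (Sytl4) and other synaptotagmin-like proteins bind Rab27 on the granule and dock it, and RIMs link granules to calcium channels. In beta cells this machinery releases insulin, and the same families, with other members, carry out endosomal, Golgi and lysosomal fusion in every cell.

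Cells were grouped by gates that use none of these genes. A cell was insulin-, glucagon- or somatostatin-gated when that hormone's RNA made up at least 1% of its counts. The other 3 among insulin, glucagon, somatostatin and pancreatic polypeptide RNA each stayed below 1%. Peptide YY (Pyy) and amylin (Iapp) RNA were not limited. Non-endocrine cells were taken by endothelial, mesenchymal, immune or Schwann cell markers. The insulin gate held 598, 665, 792 and 872 cells, the glucagon gate 123, 122, 495 and 363, and the somatostatin gate 38, 27, 36 and 66. The non-endocrine gates together held 180, 96, 253 and 630, of which 58, 39, 66 and 127 were endothelial-gated and 107, 48, 163 and 467 mesenchymal-gated. Some markers of each cell type followed the gates, and others did not. Slc2a2, the beta cell glucose transporter, stood at 585 to 792 CPM in insulin-gated and 9.79 to 18.7 in glucagon-gated cells. Irx2, a factor of alpha cells, stood at 214 to 378 CPM in glucagon-gated and 1.15 to 2.56 in insulin-gated cells, and Hhex, a factor of delta cells, at 396 to 1076 CPM in somatostatin-gated and 1.03 to 6.84 in insulin-gated cells. Mafa, another beta cell factor, was at 0.171 to 0.972 CPM in insulin-gated cells and hence close to absent. Peg3 and Gc, taken as alpha cell markers, overlapped between glucagon- and insulin-gated cells. Cd9, taken as a delta cell marker, stood at 35.3 to 138 CPM in somatostatin-gated, 100 to 204 in glucagon-gated and 323 to 620 in endothelial-gated cells. Of the other delta cell markers, Isl1 overlapped between somatostatin- and glucagon-gated cells and Ghsr between somatostatin- and insulin-gated cells. In the library labelled mutant B the insulin share of the insulin-gated cells was lowest, with a median of 3.33% against 7.91 to 28.9% in the other 3, and 110 of its 872 cells lay between 1 and 2%.

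Insulin-gated cells stood above non-endocrine cells by large margins in Sytl4, Syt13, Syt7, Cplx2 and Snap25, whereas Vamp5, Sytl2, Stx2, Snap23 and Stx4a were higher in non-endocrine cells. Levels were summed per library and gate and compared within libraries over 4 and 4 sums with edgeR's quasi-likelihood test, and a gene passed at a Benjamini-Hochberg adjusted p under 0.05 over all genes tested. Of the 66 genes 48 passed the filter on low counts in this comparison, and 26 of them were lower and 5 higher in non-endocrine cells. Over all 13922 genes tested 24.8% were lower and 23% higher, and the median log2 difference was -1.04 over the 48 genes against -0.10 over all genes. The heat map of levels by gate shows 54 of the 56 better counted genes.

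**Figure D1:**
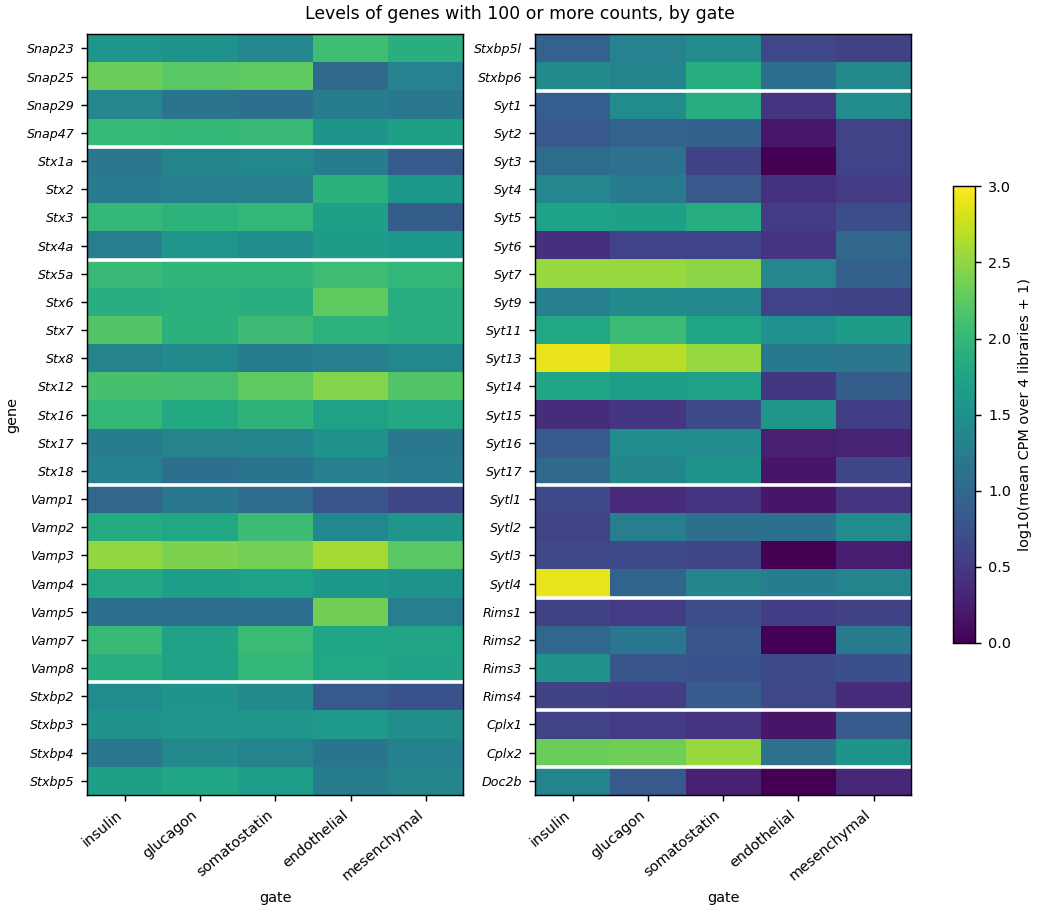
Mean level over 4 libraries of 54 of the 56 genes with at least 100 counts, as log10(CPM + 1), in the 3 hormone gates and the endothelial and mesenchymal gates, with white lines between families. Syt13, Sytl4, Syt7, Cplx2 and Snap25 are brighter in the insulin column than in the 2 non-endocrine columns, and Sytl4 is darker in every column but insulin.

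The SNAP-25 family split by member. Snap25 (chr2:136713453-136782428, GRCm38, plus strand), the SNAP-25 family member of neurons and endocrine cells, stood at 210.0, 140.5, 240.2 and 255 CPM (mean 211 ± 50.8, SD, n = 4) in insulin-gated, 6.81, 24.5, 4.46 and 4.03 CPM in endothelial-gated and 24.6, 25.9, 9.57 and 21.3 CPM in mesenchymal-gated cells. Every insulin-gated value lay above every value of these 2 gates, and over all non-endocrine cells the log2 was -3.31 ± 0.27 (SE, edgeR adjusted p = 1.52e-05). Snap23 (chr2:120567671-120601255, plus strand), its counterpart in most other tissues, ran the opposite way, at 36.2, 30.8, 43.2 and 34.5 CPM (mean 36.2 ± 5.16, SD, n = 4) in insulin-gated, 109, 176, 91.5 and 103 CPM (mean 119.9 ± 38.3, SD, n = 4) in endothelial-gated and 66.9, 82.9, 86.2 and 71.9 CPM in mesenchymal-gated cells (1.16 ± 0.17, adjusted p = 5.13e-04). The ranges of the gates did not overlap for Snap23 either. Snap47, a member found on inner membranes, was lower in non-endocrine cells, at 9.79 to 49.1 CPM in endothelial-gated and 25.9 to 68.6 CPM in mesenchymal-gated against 75.5 to 147 CPM in insulin-gated cells (-1.40 ± 0.26, adjusted p = 0.00185). Snap29, which serves endosomes and autophagosomes, was lower by a smaller margin (-0.92 ± 0.24, adjusted p = 0.0120), and it no longer passed without WT A (0.0572), without WT B (0.0708), without mutant B (0.0516) or against endothelial-gated cells alone (0.143).

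Of the plasma membrane syntaxins, Stx3, a partner of granules in secretory cells, stood at 95.8, 83.4, 120.0 and 97.6 CPM in insulin-gated cells and at 3.52, 5.18, 11.2 and 7.11 CPM in mesenchymal-gated cells, with endothelial-gated cells between at 33.5 to 61.3 CPM (-2.41 ± 0.19, adjusted p = 1.22e-05). Stx2 was higher in non-endocrine cells, at 68.1, 83.2, 82.6 and 105 CPM in endothelial-gated against 17.3, 6.73, 10.1 and 33.2 CPM in insulin-gated cells (1.69 ± 0.33, adjusted p = 0.00274). Stx4a, the mouse syntaxin 4 of glucose-stimulated insulin release, was also higher there, at 17 to 67 CPM in endothelial-gated and 24.6 to 54.2 CPM in mesenchymal-gated against 11.8 to 23.8 CPM in insulin-gated cells (0.96 ± 0.24, adjusted p = 0.00982). For Stx4a the endothelial-gated range overlapped the insulin-gated range, and the mesenchymal-gated range lay above it. Stx1a, a classical partner of Snap25, had few counts and did not pass. It stood at 21.4, 10.3, 11.7 and 14 CPM in insulin-gated cells, from 60 to 166 counts, with a difference of -0.76 ± 0.34 (adjusted p = 0.0990).

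Among the VAMPs, Vamp2, the granule SNARE of regulated exocytosis, stood at 82.2, 139, 33.8 and 20.9 CPM in insulin-gated and 35.2, 72.5, 23.9 and 11.9 CPM in mesenchymal-gated cells, and was lower in non-endocrine cells (-1.41 ± 0.19, adjusted p = 3.64e-04). Both A libraries stood above both B libraries in each of these gates. Vamp4, Vamp7 and Vamp1, of Golgi, lysosomal and synaptic vesicles, were lower in non-endocrine cells with log2 differences of -1.02, -1.22 and -1.10. Vamp3, the widely expressed relative of Vamp2, was lower by a smaller margin (-0.52, adjusted p = 0.0294), a call lost without WT A (0.103), without WT B (0.0837) or without mutant B (0.169). Its level in endothelial-gated cells, 378, 318, 444 and 442 CPM, was above that of insulin-gated cells, 292, 181, 353 and 489 CPM, in 3 of 4 libraries and below it in mutant B, and against endothelial-gated cells alone the difference was 0.13 (adjusted p = 0.642). Vamp8, of endosomes and exocrine granules, did not pass (-0.44 ± 0.22, adjusted p = 0.136).

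Vamp5 (chr6:72368794-72380468, minus strand), first described in muscle, was high in endothelial-gated cells. It stood at 133, 259.5, 279 and 230.0 CPM (mean 225 ± 64.9, SD, n = 4) in endothelial-gated cells, from 39, 53, 125 and 114 counts, at 10.6, 36.3, 12.8 and 13.4 CPM in mesenchymal-gated cells and at 7.61, 23.6, 11.1 and 4.62 CPM in insulin-gated cells. Endothelial-gated cells were above insulin-, glucagon-, somatostatin- and mesenchymal-gated cells in all 4 libraries, whereas mesenchymal-gated and insulin-gated cells overlapped. The difference over all non-endocrine cells was 2.91 ± 0.30 (adjusted p = 6.38e-05) and against mesenchymal-gated cells alone 0.63 (adjusted p = 0.208). Syt15, a synaptotagmin with under 20 counts per library in the hormone gates, showed the same gate as its highest, at 37.4, 0, 40.2 and 74.6 CPM from 11, 0, 18 and 37 counts, with a count of 0 in mutant A, which allows up to 14.7 CPM there.

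Among the syntaxin-binding proteins, Stxbp2 (Munc18-2) was at 20.3 to 35.1 CPM against 1.58 to 7.04 CPM in mesenchymal-gated cells (-2.10 ± 0.30, adjusted p = 4.60e-04). Stxbp5, tomosyn, an inhibitor of SNARE assembly, was lower in non-endocrine cells as well (-1.22 ± 0.22, adjusted p = 0.00188). Stxbp3 (Munc18c), the partner of syntaxin 4, did not pass, with a difference of -0.19 ± 0.21 (adjusted p = 0.497). In all 3 of the 7 genes of this family were lower in non-endocrine cells, beside 24.8% over all genes tested.

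Among the synaptotagmins, Syt13 (chr2:92915098-92956058, plus strand), a member that lacks the calcium-binding residues, stood at 657, 593, 1169 and 831 CPM (mean 812 ± 258, SD, n = 4) in insulin-gated cells, 13.6, 9.79, 15.6 and 22.2 CPM in endothelial-gated and 14.1, 15.5, 11.2 and 16.6 CPM in mesenchymal-gated cells (-6.03 ± 0.23, adjusted p = 6.99e-07). Syt7 (chr19:10389090-10453180, plus strand), the high-affinity calcium sensor of beta cells, stood at 277, 363, 462 and 270.0 CPM (mean 343 ± 89.8, SD, n = 4), 17, 24.5, 26.8 and 26.2 CPM and 7.04, 5.18, 6.38 and 11.1 CPM in the same gates (-4.81 ± 0.23, adjusted p = 1.22e-06). Neither gene's insulin-gated range came near its non-endocrine range. In all, 8 of the 11 synaptotagmins tested were lower in non-endocrine cells and 0 were higher. Over all genes tested 24.8% were lower and 23% higher. Among the lower synaptotagmins were Syt5 (-3.60 ± 0.36), Syt14 (-3.53 ± 0.43), Syt9 (-2.69 ± 0.37), Syt16, Syt2 and Syt17. Syt11, a member that does not bind calcium, did not pass (-0.38 ± 0.22, adjusted p = 0.177). Syt1, the calcium sensor of fast neurotransmitter release, stood at 59.8, 0, 4.79 and 44.2 CPM in mesenchymal-gated cells, from 34, 0, 3 and 56 counts, and at 3.40, 0, 2.23 and 2.02 CPM in endothelial-gated cells. WT A and mutant B held nearly all of its mesenchymal counts, and the 2 gates went opposite ways against insulin-gated cells. The difference was 1.20 ± 0.46 over all non-endocrine cells (adjusted p = 0.0612) and -1.94 against endothelial-gated cells alone (adjusted p = 0.0477).

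Sytl4 (granuphilin, chrX:133936385-133981812, minus strand) was high in insulin-gated cells and low in every other gate of a single hormone or of non-endocrine cells. It stood at 753, 722, 826 and 875 CPM (mean 794 ± 69.3, SD, n = 4) in insulin-gated cells, from 5840, 4402, 4246 and 5119 counts, at 27.2, 24.5, 4.46 and 12.1 CPM in endothelial-gated and at 21.1, 25.9, 22.3 and 17.4 CPM in mesenchymal-gated cells (-5.65 ± 0.20, adjusted p = 6.99e-07). All 4 insulin-gated values lay within 722 to 875 CPM. No library exceeded 74.0 CPM in the glucagon, somatostatin, endothelial, mesenchymal, immune or Schwann gates. Sytl2, which sits on glucagon granules in alpha cells, ran the other way, at 1.93, 3.45, 3.50 and 3.76 CPM in insulin-gated and 26.4, 20.7, 22.3 and 38.7 CPM in mesenchymal-gated cells (2.49 ± 0.34, adjusted p = 3.68e-04). The other 3 synaptotagmin-like genes did not pass the filter on low counts in this comparison.

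Complexin 2, Cplx2, stood at 169.8, 206, 256 and 193 CPM (mean 206 ± 36.2, SD, n = 4) in insulin-gated, 13.6, 4.90, 20.1 and 12.1 CPM in endothelial-gated and 14.1, 57, 36.7 and 29.2 CPM in mesenchymal-gated cells, without overlap (-3.40 ± 0.20, adjusted p = 3.01e-06). Cplx1 had 164 counts in all and did not pass the filter. Doc2b, a calcium-binding helper of insulin granule fusion, stood at 25.4, 15.1, 23.9 and 21.9 CPM in insulin-gated cells and had 0, 0, 3 and 4 counts in non-endocrine cells (adjusted p = 2.67e-04). Rims3, a short RIM, stood at 44.5, 37.9, 27.2 and 23.6 CPM in insulin-gated and 7.49, 2.28, 6.06 and 3.20 CPM in non-endocrine cells (-2.89 ± 0.33, adjusted p = 1.10e-04). Rims2, the RIM best known in beta cells, had only 39 to 67 counts per library there and did not pass (-1.06 ± 0.62, adjusted p = 0.190). Of the 8 syntaxins of inner membranes 2, Stx16 of the Golgi (-1.01 ± 0.17) and Stx7 of late endosomes (-0.98 ± 0.22), were lower in non-endocrine cells. The other 6, among them Stx5a, Stx6 and Stx12, did not pass. The 2 of 8 are near the 24.8% lower over all genes tested.

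The number of genes lower in non-endocrine cells lay between 21 and 28 when any 1 library was left out, of 49 to 51 tested. The number higher lay between 5 and 8, the 8 without mutant A. Over all genes tested the calls in these fits lay between 2592 and 3233 lower and between 2668 and 3437 higher. Free RNA in droplets adds counts to cells that do not make a gene. Insulin RNA in non-endocrine cells, which the gates hold below 1% of counts, was at 0.822 to 1.49% of its insulin-gated level. Sytl4 stood at 1.78 to 3.15% of its insulin-gated level in the same cells, Syt13 at 1.11 to 2.19%, Syt7 at 3.19 to 5.74%, Cplx2 at 7.56 to 13.3% and Snap25 at 6.71 to 19.4%. For Sytl4, Syt7, Cplx2 and Snap25 the percentage was above that of insulin in 4 of 4 libraries, and for Syt13 in 3 of 4. Schwann-gated cells, 3, 3, 9 and 9 in number, held 37 of the 46 Snap25 counts of the non-endocrine cells of WT B. The part of free RNA in the differences was not tested.

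**Figure D2:**
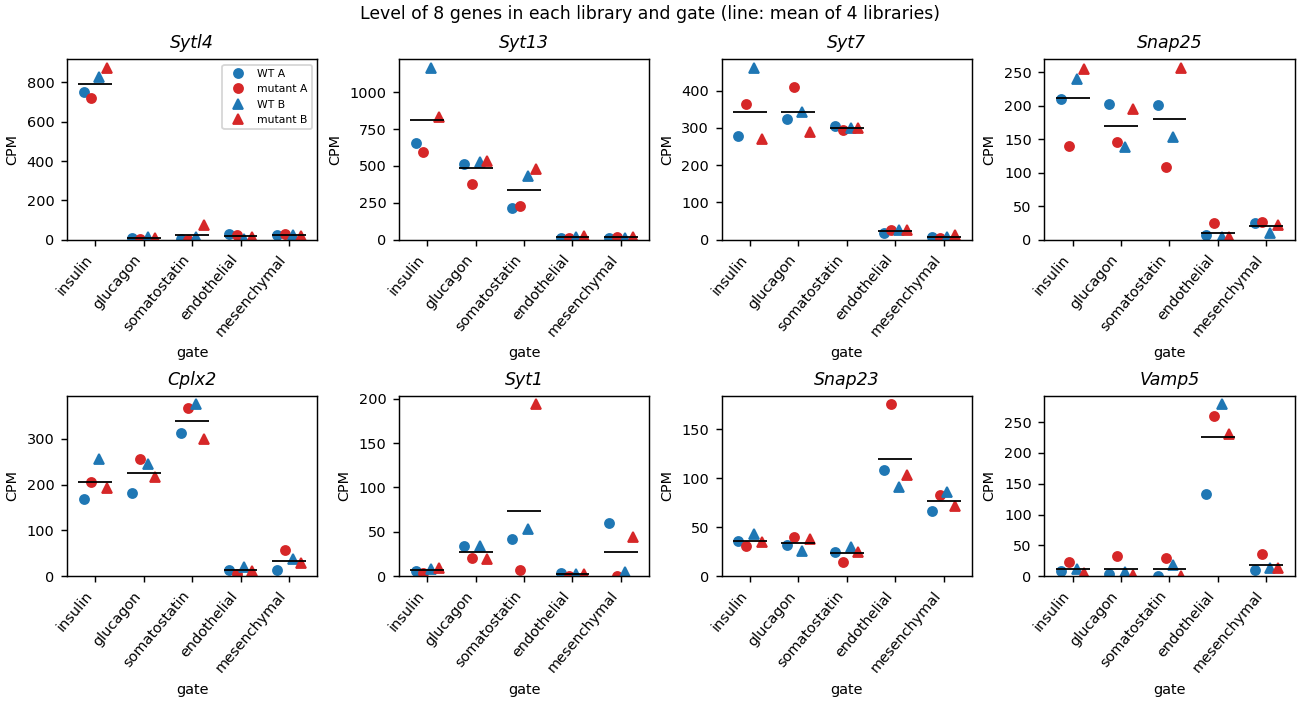
Level in CPM (vertical axis from 0) of 8 genes in each gate, with 1 point per library, blue for WT labels, red for mutant labels, circles for A and triangles for B, and a black line at the mean of 4 libraries. Sytl4 lies at 722 to 875 CPM in insulin-gated cells and at 0 to 74.0 CPM elsewhere, Vamp5 stands out in endothelial-gated cells, and Syt1 in somatostatin-gated cells ranges from 7.2 CPM in mutant A to 194 CPM in mutant B.

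Promoter windows of 4 of these genes are printed because they were among those that separated the gates: Sytl4 and Stx3 were higher in insulin-gated cells, Snap23 and Vamp5 in non-endocrine cells. Each window, from RefSeq on GRCm38.p6, runs from 250 bases before to 50 after the annotated start, 5′ to 3′ on the gene's strand, with CG dinucleotides in capitals. The positions are chrX:133981763-133982062 (minus strand) for Sytl4, chr19:11819354-11819653 (minus) for Stx3, chr2:120567421-120567720 (plus) for Snap23 and chr6:72380419-72380718 (minus) for Vamp5.
Sytl4: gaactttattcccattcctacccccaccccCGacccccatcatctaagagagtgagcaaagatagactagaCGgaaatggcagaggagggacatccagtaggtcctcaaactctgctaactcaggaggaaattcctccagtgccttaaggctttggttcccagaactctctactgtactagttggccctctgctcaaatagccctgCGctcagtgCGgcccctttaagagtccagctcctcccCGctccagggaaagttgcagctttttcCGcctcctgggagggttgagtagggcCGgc
Stx3: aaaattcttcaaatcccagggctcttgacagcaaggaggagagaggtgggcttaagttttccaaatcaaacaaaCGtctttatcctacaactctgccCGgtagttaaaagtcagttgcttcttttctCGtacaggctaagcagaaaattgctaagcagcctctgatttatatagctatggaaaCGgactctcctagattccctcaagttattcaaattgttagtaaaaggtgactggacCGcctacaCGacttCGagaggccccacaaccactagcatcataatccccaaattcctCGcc
Snap23: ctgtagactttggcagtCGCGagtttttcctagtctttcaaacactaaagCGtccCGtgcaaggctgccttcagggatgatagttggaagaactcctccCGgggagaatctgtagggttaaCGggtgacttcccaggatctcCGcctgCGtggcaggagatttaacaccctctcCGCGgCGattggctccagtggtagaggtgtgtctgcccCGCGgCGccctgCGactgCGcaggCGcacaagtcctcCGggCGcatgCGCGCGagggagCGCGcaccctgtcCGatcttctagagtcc
Vamp5: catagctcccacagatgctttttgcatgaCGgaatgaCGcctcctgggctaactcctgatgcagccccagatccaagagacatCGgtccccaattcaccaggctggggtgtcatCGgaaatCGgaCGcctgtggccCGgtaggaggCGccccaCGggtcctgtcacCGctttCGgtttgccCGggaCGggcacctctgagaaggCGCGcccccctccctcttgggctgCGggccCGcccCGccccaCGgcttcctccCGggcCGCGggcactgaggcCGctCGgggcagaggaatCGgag
The windows of Sytl4 and Stx3 hold 7 and 8 CG, and those of Snap23 and Vamp5 25 each. Over all 32851 windows of the table the median was 7, and 26.5% held at least 20. Of the 26 genes lower in non-endocrine cells 16 had a window, with 7 to 49 CG and a median of 24.5, and of the 5 higher 4 had one, with 23 to 25. For these groups the window with most CG was taken per gene, whereas the median of 7 is over single windows. The groups were therefore not set against that median. No data on methylation or binding at these windows were used here.

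In glucagon-gated cells Sytl4, Rims3 and Doc2b were lower than in insulin-gated cells, and Sytl2, Sytl5, Syt1 and Syt16 were higher. Of the 66 genes 52 passed the filter, and 8 were higher and 13 lower in glucagon-gated cells. Over all 14336 genes tested 11.2% were higher and 13.7% lower, and the median log2 difference was -0.17 over the 52 genes against 0.03 over all genes. By family, 4 of 12 synaptotagmins and 2 of 4 synaptotagmin-like genes were higher, and 4 of 7 VAMPs, 3 of 8 inner syntaxins and 2 of 4 SNAP-25 family genes lower.

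Sytl4 stood at 9.79, 2.68, 13.2 and 7.56 CPM (mean 8.32 ± 4.43, SD, n = 4) in glucagon-gated cells, from 10, 2, 34 and 14 counts, against 722 to 875 CPM in insulin-gated cells (-6.53 ± 0.24, adjusted p = 1.01e-08). That is 0.371 to 1.6% of the insulin-gated level, beside 0.707 to 1.65% for insulin RNA in the same cells. Cells were then thinned to 3000 counts each, which left out 664 of 4030 cells with fewer. Sytl4 was seen in 82.8, 79.9, 85.1 and 87.1% of insulin-gated cells and in 2.70, 0, 2.39 and 2.31% of glucagon-gated cells. Before thinning these shares were 91.5, 84.4, 88.5 and 91.1% and 6.50, 1.64, 6.26 and 3.03%. For the share of 0 in mutant A the Wilson 95% interval reaches 4.01%, which covers counting error only.

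Sytl2 stood at 7.83, 26.8, 20.3 and 17.8 CPM in glucagon-gated against 1.93, 3.45, 3.50 and 3.76 CPM in insulin-gated cells, with no overlap (2.35 ± 0.27, adjusted p = 5.75e-05). Sytl5, a further Rab27 partner, stood at 6.85, 12, 5.46 and 3.24 against 0.773, 1.48, 1.94 and 1.03 CPM on 7, 9, 14 and 6 counts (2.14 ± 0.40, adjusted p = 0.00218). Sytl5 too was higher in glucagon-gated cells in 4 of 4 libraries. Syt1 stood at 34.3, 20.1, 34.3 and 19.4 against 6.19, 3.94, 7.58 and 9.57 CPM (1.86 ± 0.26, adjusted p = 2.78e-04) and Syt16 at 22.5, 12, 37.4 and 40.5 against 3.48, 5.74, 6.61 and 9.06 CPM (2.09 ± 0.28, adjusted p = 2.08e-04). Syt11 stood at 137, 129.8, 79.9 and 94 against 79.3, 48.9, 55.8 and 61.2 CPM (0.70 ± 0.13, adjusted p = 0.00201). The glucagon-gated ranges of these 3 synaptotagmins lay above the insulin-gated ranges. Syt17 (1.17 ± 0.22), Stxbp5l, the second tomosyn (1.20 ± 0.28), and Stx4a (0.89 ± 0.17) completed the 8 higher genes.

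Rims3 stood at 4.90, 9.37, 2.34 and 4.86 CPM in glucagon-gated against 44.5, 37.9, 27.2 and 23.6 CPM in insulin-gated cells (-2.85 ± 0.26, adjusted p = 1.14e-05), and Doc2b at 13.7, 4.02, 5.07 and 0.540 against 25.4, 15.1, 23.9 and 21.9 CPM (-2.22 ± 0.40, adjusted p = 0.00169). Syt13 was lower in glucagon-gated cells but still high, at 515, 380.1, 529 and 535 CPM (mean 489.6 ± 73.5, SD, n = 4) (-0.82 ± 0.13, adjusted p = 5.98e-04). Stx7 (-1.02 ± 0.12) and Vamp7 (-1.16 ± 0.15), both of late endosomes and lysosomes, were lower in glucagon-gated cells in 4 of 4 libraries. Vamp8 (-0.66), Vamp3 (-0.46), Vamp4 (-0.52), Stx16 (-0.70), Stx18 (-0.94), Snap29 (-0.99) and Snap25 (-0.43) were lower by at most 1 log2 unit. Several of these calls needed all libraries. The adjusted p rose for Snap25 to 0.121 without WT B and 0.0579 without mutant B, for Snap29 to 0.106 without WT B, and for Vamp3 to 0.0815 without WT B and 0.0554 without mutant B. It rose for Vamp8 to 0.0561 without WT A and 0.0553 without mutant B, for Vamp4 to 0.0679 without WT A and for Stx16 to 0.0865 without mutant B.

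Several genes of the core machinery did not pass between glucagon- and insulin-gated cells. Cplx2 stood at 182, 256, 246 and 217 CPM in glucagon-gated cells, a difference of 0.00 ± 0.11 (adjusted p = 0.981), and Syt7 at 324, 411, 341 and 290.0 CPM (-0.11 ± 0.12, adjusted p = 0.533). Their ranges overlapped those of insulin-gated cells. Stx1a (0.49 ± 0.22), Stx3 (-0.34 ± 0.14), Vamp2 (-0.35 ± 0.14), Snap47 (-0.14 ± 0.12), Snap23 (-0.23 ± 0.18), Stxbp2 (0.20 ± 0.16), Stxbp5 (0.09 ± 0.17), Syt4 (-0.49 ± 0.42), Syt5 (-0.14 ± 0.24) and Rims2 (0.45 ± 0.25) did not pass either.

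**Figure D3:**
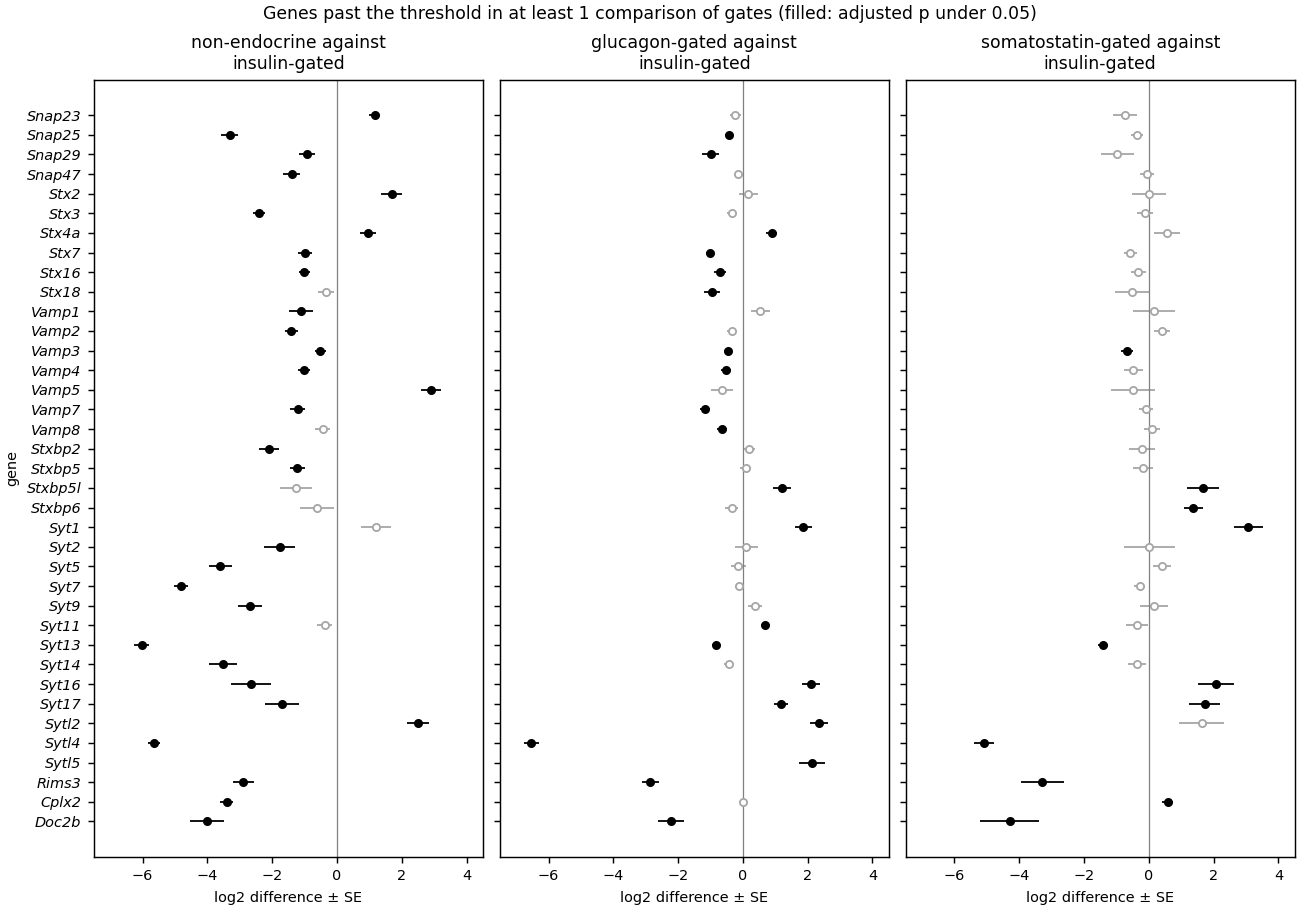
Log2 difference (horizontal axis, bars ± SE) of genes that passed in at least 1 comparison of gates, in non-endocrine, glucagon-gated and somatostatin-gated cells, each against insulin-gated cells of the same 4 libraries, with black filled points at an adjusted p under 0.05 and grey open points otherwise; genes that did not pass the filter have no point. Sytl4, Rims3 and Doc2b lie far to the left in all 3 panels, which share their insulin-gated sums.

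Somatostatin-gated cells, with 27 to 66 cells per library, showed lower Sytl4, Syt13 and Rims3 and higher Syt1, Stxbp6, Syt16, Syt17, Stxbp5l and Cplx2. Of the 66 genes 48 passed the filter, and 6 were higher and 5 lower than in insulin-gated cells. Over all 12549 genes tested 5.67% were higher and 8.45% lower. The 5 of 48 lower are near the share over all genes. The median log2 difference was -0.15 over the 48 genes and -0.11 over all genes. The somatostatin gate also held RNA of Iapp, the amylin gene, at 14298 to 21044 CPM, beside 25040.2 to 39250.4 CPM in insulin-gated cells, while Slc2a2 was at 7.2 to 77.5 CPM, the 77.5 in mutant B.

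Cplx2 stood at 313, 367, 376 and 299 CPM (mean 339 ± 38.2, SD, n = 4) in somatostatin-gated against 169.8, 206, 256 and 193 CPM in insulin-gated cells (0.58 ± 0.16, adjusted p = 0.00952). The somatostatin-gated values were above the insulin-gated value of their own library in 4 of 4, at 147 to 185% of it, but the call was lost without WT A (0.0986), without WT B (0.0822) or with no filter on low counts (0.253). Syt1 stood at 41.8, 7.20, 52.9 and 194 CPM, from 10, 1, 9 and 55 counts, against 6.19, 3.94, 7.58 and 9.57 CPM (3.07 ± 0.45, adjusted p = 1.41e-06). It was highest in mutant B and rested on 1 count in mutant A. After thinning to 3000 counts, which left out 43 of the 167 somatostatin-gated cells, Syt1 was seen in 14.7, 5.26, 8.0 and 32.6% of somatostatin-gated cells, beside 1.67, 0.568, 1.54 and 3.26% of insulin-gated cells. Before thinning the shares were 15.8, 3.70, 11.1 and 31.8% beside 5.35, 3.31, 3.28 and 5.05%. Stxbp6 (amisyn), which binds syntaxins, stood at 29.3, 57.6, 118 and 95.1 against 14.6, 22.8, 38.9 and 26.8 CPM (1.37 ± 0.30, adjusted p = 8.25e-04) and lost its call without mutant B (0.0515).

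Syt16 (2.08 ± 0.54, adjusted p = 0.00544), Syt17 (1.72 ± 0.48, adjusted p = 0.0106) and Stxbp5l (1.68 ± 0.50, adjusted p = 0.0167) rested on 9, 0, 6 and 10, 10, 0, 9 and 13 and 5, 2, 8 and 7 counts. Their adjusted p rose to 0.113 for Syt16 without WT A, to 0.205 for Syt17 without WT B, and for Stxbp5l to 0.0954 without WT A, 0.146 without WT B and 0.0729 without mutant B. The number of higher genes was 3 without WT A and 3 without WT B, against 6 with all libraries, and 4 without mutant B. Over all genes tested the higher calls fell as well, from 712 to 516, 595 and 586 without these libraries. The number of lower genes lay between 5 and 7, beside 712 to 1144 over all genes tested.

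Sytl4 had 1, 0, 2 and 21 counts in somatostatin-gated cells, 4.18, 0, 11.8 and 74 CPM (-5.08 ± 0.31, adjusted p = 1.23e-16). Mutant B held 21 of the 24. Insulin RNA in this gate was at 3.05% of its insulin-gated level in that library, against 0.781 to 1.79% in the other 3. In CPM mutant B was not the highest, with Ins1 at 832, 1374, 647 and 662 and Ins2 at 936, 835, 888 and 740. Whether insulin RNA and the Sytl4 counts are linked was not tested. Syt13 stood at 213, 230.3, 435 and 483 CPM, 32.4 to 58.1% of the insulin-gated level (-1.41 ± 0.16, adjusted p = 1.14e-08). Rims3 had 0, 1, 2 and 0 counts and Doc2b 0, 0, 0 and 1, so that only the direction can be read (adjusted p = 2.50e-04 and 5.43e-04). Vamp3, at 167, 79.2, 282 and 405 CPM (-0.68 ± 0.18, adjusted p = 0.00666), no longer passed without WT A (0.0862) or with DESeq2 (0.0636). Snap25, at 201, 108, 153 and 257 CPM, did not pass (-0.36 ± 0.18, adjusted p = 0.219). Neither did Syt7, at 305, 295, 299.8 and 299 CPM (-0.29 ± 0.17, adjusted p = 0.314), Stx3 (-0.13 ± 0.25) or Vamp2 (0.41 ± 0.25).

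Cells with pancreatic polypeptide RNA numbered 25, 17, 16 and 23 and were not tested. Sytl4 stood at 15.2, 0, 10.4 and 69.5 CPM there on 3, 0, 1 and 8 counts, Doc2b had 0 counts in each library, and Syt13, Cplx2 and Syt7 stood at 495 to 560.2, 276 to 438 and 249.9 to 407 CPM. In no gate were 63, 33, 102 and 276 cells. Cells with RNA of several hormones above 1%, 180, 184, 99 and 152 in number, were set apart and can include undetected doublets. They held Sytl4 at 409, 361, 39.2 and 412 CPM. Sytl4 was low there in WT B only, where Slc2a2 was also lowest, at 37.4 CPM against 282 to 394 CPM in the other 3. The mix of cells differed too. Ins1 stood at 54803, 102467, 1549 and 9539 CPM in this gate, and Gcg at 10346, 27210, 86775 and 20211 CPM. The median insulin share of its cells was 0.15% in WT B and at least 1.72% in the other 3. The median glucagon share was 8.47% in WT B and at most 0.85% in the other 3. Whether Sytl4 differed between libraries in like cells of this gate was not tested.

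Of 50 other exocytosis genes (Rab3 and Rab27 GTPases and effectors, exocyst subunits, active zone proteins, Munc13 and synapsin genes and others), 46 were tested between non-endocrine and insulin-gated cells, with 23 lower and 3 higher, beside the 24.8% lower and 23% higher over all genes. Slc30a8, the zinc transporter of insulin granules (-7.01 ± 0.33), and the granule GTPases Rab3d (-3.61 ± 0.19) and Rab3b (-3.77 ± 0.21) had the smallest p among the lower, and Snapin (1.02 ± 0.18), Ppfia4 (1.55 ± 0.43) and Sypl (0.72 ± 0.21) were higher. Snapin lost its call against endothelial-gated cells alone (0.0587), Ppfia4 without WT A (0.0564), without WT B (0.0776) or without mutant B (0.0737), and Sypl without WT A (0.0632). In glucagon-gated cells, where 13.7% of all genes were lower and 11.2% higher, 12 of 47 were lower, led by Pclo (-2.56 ± 0.15), Sv2a (-1.30 ± 0.14) and Rab3a (-1.11 ± 0.12), and 5 higher, led by Rab3c (1.68 ± 0.30), Ppfia2 (1.64 ± 0.34) and Sv2b (1.15 ± 0.27, adjusted p = 0.0572 without WT A). In somatostatin-gated cells, where 8.45% of all genes were lower and 5.67% higher, 8 of 46 were lower, led by Slc30a8 (-4.21 ± 0.31), Pclo (-1.82 ± 0.28) and Cadps (-2.27 ± 0.42), and 3 higher, Rab3b (1.91 ± 0.18), Ppfia2 (3.09 ± 0.50) and Exoc6 (1.82 ± 0.56, adjusted p = 0.145 without WT B, 0.207 without mutant B and 0.0652 with no filter on low counts). The 5 of 47 higher in glucagon-gated and the 3 of 46 higher in somatostatin-gated cells are near the shares over all genes. Rab3b was higher in somatostatin-gated and lower in glucagon-gated cells (-0.77 ± 0.15) than in insulin-gated cells of the same libraries.

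Between libraries labelled mutant and WT, 0 of the exocytosis genes passed in any gate. Tested were 57 of the 66 genes in insulin-gated cells, 46 in glucagon-gated, 23 in somatostatin-gated and 38 in non-endocrine cells, and 63 in all cells, and edgeR called 0, with 0 at an unadjusted p under 0.05 in any of these fits, as did DESeq2. Over all genes tested 0% passed in each comparison. For a single value, 2 libraries against 2 cannot give an exact permutation p below 0.333. In counts simulated with the fitted spread, the label test in insulin-gated cells recovered 0 of 89 genes changed 2-fold and 3 of 111 changed 4-fold. In glucagon-gated cells it recovered 0 of 88 and 3 of 112. The 0 calls therefore do not show that the labels are alike. The median log2 difference, mutant less WT, was -0.07 over the genes tested in insulin-gated cells (-0.01 over all genes), 0.11 in glucagon-gated (0.00), 0.17 in somatostatin-gated (0.01) and 0.01 in non-endocrine cells (0.02). The change from WT to mutant labels was also compared between glucagon-gated and insulin-gated cells, where 0 of 62 passed with either tool and 0 had an unadjusted p under 0.05.

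The named genes nearest to the threshold were far from it. In insulin-gated cells they were Sytl1 (0.92 ± 0.89), Syt16 (0.64 ± 0.70), Vamp5 (0.62 ± 0.73), Syt2 (0.69 ± 0.82) and Stx18 (-0.49 ± 0.59), in the order of their unadjusted p in the edgeR fit. In glucagon-gated cells they were Syt1 (-0.79 ± 0.57), Sytl4 (-1.05 ± 0.91), Syt2 (1.22 ± 1.16) and Syt3 (1.12 ± 1.08). In somatostatin-gated cells they were Vamp2 (1.19 ± 0.85), Syt1 (1.16 ± 0.89), Stx5a (0.75 ± 0.62), Vamp8 (0.70 ± 0.68) and Syt11 (0.76 ± 0.93), and in non-endocrine cells they were Stxbp4 (-1.0 ± 0.57), Vamp8 (-0.44 ± 0.39), Stxbp6 (-0.95 ± 0.85), Sytl2 (0.62 ± 0.58) and Stxbp5 (-0.51 ± 0.50). The adjusted p was 1.00 for each of these genes, and the SE lay between 0.39 and 1.16. Sytl4 differed by 0.07 ± 0.66 in insulin-gated cells.

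The spread behind these SE had a form that the labels do not describe. Syt4, a synaptotagmin of granules that does not drive fusion in the way of Syt1, stood at 1.16, 39.2, 53.3 and 1.37 CPM in insulin-gated cells, from 9, 239, 274 and 8 counts, and at 7.83, 34.8, 21 and 1.62 CPM in glucagon-gated cells. Mutant A and WT B were high in both gates, and WT A and mutant B low. After thinning to 3000 counts Syt4 was seen in 0.556, 7.77, 14.0 and 0.522% of insulin-gated cells, and in 0, 10.9, 7.18 and 0.330% of glucagon-gated cells, beside 0, 0, 1.17 and 1.24% of non-endocrine cells, of which thinning left out 532 of 1159, 388 of them in mutant B. Before thinning the insulin-gated shares were 1.51, 22.0, 23.4 and 0.917%. Syt3 followed the same order, at 2.71, 13, 22.6 and 3.59 CPM in insulin-gated and 1.96, 33.5, 10.9 and 1.62 CPM in glucagon-gated cells, and so did Syt5 and Vamp5 in insulin-gated cells. Stx2, at 17.3, 6.73, 10.1 and 33.2 CPM, and Syt17, at 12.4, 4.10, 5.45 and 17.6 CPM, had the reverse order. Sin3a shared the order of Syt4, being higher in mutant A and WT B, and its part in these patterns was not tested.

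Of the 46 genes that reached 20 counts in all 4 libraries of the insulin gate, 30 (65.2%) changed in opposite directions from WT to mutant within A and within B, relative to the median gene, 6 were higher in mutant both times and 10 lower both times. Over all 10877 such genes 75.1% ran opposite, so the share among the exocytosis genes was not above that of all genes. Changes of at least 2-fold were opposite in 4 genes, Syt3, Vamp5, Syt17 and Stx2, and in the same direction in 0. Over all 10877 genes such changes were opposite in 656 and in the same direction in 13. Opposite 2-fold changes were therefore not particular to the exocytosis genes. In 6 genes (13.0%, near the 11.5% over all genes) the CPM values of the 2 labels did not overlap, all of them lower in mutant. These CPM were not taken relative to the median gene. The median gene was itself lower in mutant, at a log2 of -0.161 within A and -0.114 within B. The 6 genes included Doc2b, at 25.4, 15.1, 23.9 and 21.9 CPM, Snap23, Snap29, Stx18 and Syt9. In glucagon-gated cells 15 of 26 ran opposite (57.7%, against 68.2% over all genes). Snap23, lower in CPM with the mutant label in insulin-gated cells, was higher with it there, at 32.3, 40.2, 25.7 and 38.3 CPM. Its label difference was -0.22 ± 0.56 in insulin-gated and 0.45 ± 0.55 in glucagon-gated cells, and neither passed. The insulin-gated totals hold insulin RNA, with Ins1 at 80699, 169160, 39536 and 19470 CPM. Overlap of the labels without it was not tested. In non-endocrine cells 7 of 12 ran opposite, against 59.8% over all genes.

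**Figure D4:**
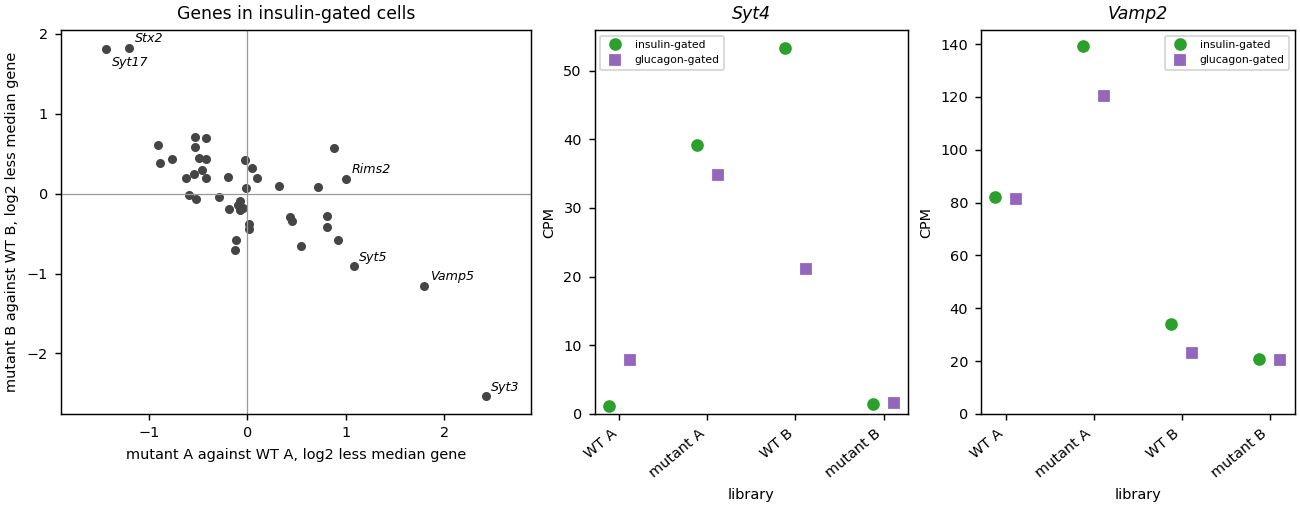
Left, change from WT to mutant label in insulin-gated cells (log2 less the median gene) within A on the horizontal and within B on the vertical axis, 1 point for each of 44 of the 46 genes that reached 20 counts in all 4 libraries. Right, levels in CPM of Syt4 and Vamp2 in each library: Syt4 is high in mutant A and WT B and low in WT A and mutant B in both gates, while Vamp2 is higher in both A libraries than in both B libraries.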

How the data were processed

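The authors deposited 1 table of counts per library, 38459 features by barcode, of which 38457 are mouse genes; islet cells were dissociated, captured with inDrop and amplified linearly, per the labels' protocols. The builds GRCm38 and GRCh38 are named in the submitters' processing notes, and the sources used here name no aligner or counter and do not say whether counts are of reads or molecules. Library totals were 12835199, 9282495, 10350699 and 12236110 counts over 1302, 1323, 1878 and 2445 barcodes, of which 6526 of 6948 were kept (at least 500 counts and 250 genes, at most 25% mitochondrial counts, 40 doublets removed with Scrublet in scanpy 1.11.5).

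Counts were summed per library and gate and tested with edgeR 4.0.16 (TMM scaling, low-count filter filterByExpr, quasi-likelihood F test, Benjamini-Hochberg adjustment over all genes tested), with library as a block between gates and without a block between labels. SE is the absolute log2 difference divided by the square root of F. A non-endocrine cell had at least 5 counts from at least 3 markers of 1 lineage. CPM are counts scaled to 1000000 per sum. Intervals are Wilson 95% and, like the 3 counts that a count of 0 allows, cover counting error only. Comparisons of gates share the insulin-gated sums. The scripts were tested on simulated data. DESeq2 1.42.0 and the settings in the closing section were alternatives. Of the 66 genes 65 were found in GENCODE M21, 48 had a RefSeq promoter window, and 6 overlap another gene at their 3′ end (Doc2a, Doc2g, Stx18, Syt12, Syt6 and Sytl3), where the counting may mix both.

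The members and lists were chosen with earlier results of these data known. Named were core genes of beta cell exocytosis, up to 10 genes per direction of smallest p in each comparison of gates, the 5 of smallest p between labels, and 3 per direction of the wider list; Syt3, Syt15, Stxbp3 and the genes of the changes within A and B were named after their values were seen. Some genes of the set are counted in the totals but not reported here by name.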

Additional observations from a re-analysis of the deposited data

How the results depend on the processing

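Of 72 named differences between gates that passed the threshold (a gene counts once per comparison), 71 also passed with DESeq2 and 54 without each library in turn. With no replicate block, that is, without the library term, 43 passed. The 72 include genes of the wider list and genes named for a small p in these same counts. The numbers that held are therefore not those of all calls. With no replicate block the genes higher in glucagon-gated cells numbered 4 in place of 8 and those lower 2 in place of 13. Those higher in somatostatin-gated cells numbered 1 in place of 6. Over all genes tested the same calls fell as well, from 1603 to 384, from 1970 to 499 and from 712 to 334. With no filter on low counts the genes higher in non-endocrine cells numbered 9 in place of 5. Those lower in somatostatin-gated cells numbered 8 in place of 5. That setting tested 66 of the genes in place of 48 in both comparisons. Over all genes it called 3367 of 31690 higher in non-endocrine cells, in place of 3202 of 13922. It called 1449 of 31451 lower in somatostatin-gated cells, in place of 1061 of 12549. Between labels the replicate block, with the title number as the block, called 0 of the genes in every comparison; same-numbered libraries deviated together with a correlation of 0.04 in insulin-gated, 0.08 in glucagon-gated, 0.20 in somatostatin-gated, 0.41 in non-endocrine and 0.22 in all cells, and with 2 pairs and no label for the number, whether it marks a shared source is not known. Left out 1 at a time, the libraries gave 3 to 6 genes higher in somatostatin-gated cells, beside 516 to 637 over all genes tested.

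Some differences that did not pass the test changed sign, as did those of Vamp3 and Sypl, which did. Against endothelial-gated cells alone the difference was 0.13 for Vamp3 and -1.94 for Syt1, and against mesenchymal-gated cells alone -0.063 for Sypl, while the label difference of Stxbp5 in mesenchymal-gated cells, an alternative chosen after seeing the data, was 0.15. With no filter on low counts the glucagon-gated differences were -0.10 for Stxbp5 and -0.19 for Cplx2, and the somatostatin-gated one of Vamp8 was -0.074. Cplx2 in glucagon-gated cells was at -0.0057 with DESeq2 and -0.021 with the hormone genes left out of the totals, and Snap47 in somatostatin-gated cells at 0.0084 with the hormone cut at 2%. Leaving out 1 library at a time gave, in glucagon-gated cells, -0.058 to 0.040 for Cplx2, -0.036 to 0.31 for Stxbp5, -0.86 to 0.23 for Syt4 and -0.40 to 0.081 for Syt5. In somatostatin-gated cells it gave -0.57 to 0.094 for Stx3, -0.57 to 0.0019 for Stxbp2, -0.83 to 0.20 for Syt11 and -0.24 to 0.37 for Vamp8. For label differences it gave -1.41 to 1.74 for Sytl1, -0.89 to 1.32 for Vamp5 and -0.14 to 2.46 for Syt2 in insulin-gated cells, -1.98 to 2.996 for Syt3 in glucagon-gated cells, -1.03 to 2.21 for Vamp2, -0.26 to 1.31 for Vamp8 and -0.20 to 3.04 for Syt11 in somatostatin-gated cells, and -2.61 to 0.26 for Stxbp6 and -0.16 to 1.00 for Sytl2 in non-endocrine cells. A lone library of a label was assumed to vary like the other libraries. Depth limits the somatostatin gate and the genes with under 100 counts, and the cause of the changes listed here was not tested.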
